A study of Mus musculus with 47 samples.

Results

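The difference between the effect of losing EED in mature and in immature medullary thymic epithelial cells (mTECs) of neonatal mice was measured for every gene. For each gene it is the change from Ctrl to EEDcKO in mTEChi minus the same change in mTEClo, on the log2 scale, so a positive value marks a gene whose effect was higher in mTEChi and a negative value a gene whose effect was lower there. The 4 groups that enter it were taken from the sample titles and hold 15 of the 47 bulk RNA-seq libraries of the series. They are mTEChi Ctrl (n = 5), mTEChi EEDcKO (n = 3), mTEClo Ctrl (n = 3) and mTEClo EEDcKO (n = 4), and all genes were used, of which 20196 of the 55471 listed passed the filter on low counts.

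All 15 libraries came from thymus of C57BL/6 mice aged 1 to 6 days, as live EpCAM+ cells without CD45 and Ly51, sorted by high or low surface MHC class II. In EEDcKO mice a floxed EED was deleted by Foxn1-Cre, which acts in the thymic epithelium as a whole, so cortical cells and mTEClo precursors lost EED as well as mTEChi. The labels name the other genotype only as Ctrl, and many libraries pool male and female mice. mTEClo Ctrl holds libraries from mice of 1 day and of 2 to 3 days only, whereas each of the other 3 groups also has at least 1 library from mice of 6 days. Labels do not say which libraries came from the same animals, so p-values measure the spread between these libraries.

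The EED protein belongs to the core of Polycomb repressive complex 2 (PRC2), the enzyme that places H3K27me3, a histone mark found on silent genes of development in most tissues. mTECs present self antigens to developing T cells. The mTEChi fraction holds the cells that express Aire, the autoimmune regulator, together with much MHC class II and CD80, and the mTEClo fraction holds progenitors, chemokine-producing cells and cells past the Aire-expressing stage.

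The libraries held 1578579 to 4650379 counts, and the 4 of the lowest depth held 1578579 to 1805331 (mTEClo Ctrl replicate 3, mTEChi Ctrl replicates 1 and 2, and mTEChi EEDcKO replicate 1). mTEChi Ctrl replicates 1 and 2, both from male mice of 6 days, were the nearest pair within a group, with a chi-square of 1.23 per gene where pure sampling gives about 1. The sort labels were checked against fixed markers. Cd80 was higher in mTEChi than in mTEClo in both genotypes (log2 1.40 in Ctrl, edgeR adjusted p = 0.0031, and 2.33 in EEDcKO, adjusted p = 3.96e-05). Aire differed by 0.91 in Ctrl (adjusted p = 0.076) and by 2.16 in EEDcKO (adjusted p = 2.98e-04). Ccl21a, a chemokine, was lower in mTEChi than in mTEClo of Ctrl (log2 -0.90, edgeR adjusted p = 4.59e-04). In EEDcKO it did not pass the test between the fractions (log2 -0.22, adjusted p = 0.33). The RNAs of H2-Aa, H2-Ab1, H2-Eb1 and Cd74, the MHC class II molecules behind the gate, did not pass the test between the fractions in either genotype, with Ctrl differences of 0.041 to 0.25.

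Eed RNA was lower in EEDcKO in both fractions, and its interaction did not pass the test. In mTEChi, Eed was at 38.5, 35.5, 26.7, 23.3 and 20.2 CPM (reads of the gene scaled to the total of the library with TMM factors) in Ctrl and at 19.7, 10.6 and 13.7 CPM in EEDcKO. In mTEClo it was at 23.1, 23.3 and 25.7 CPM in Ctrl and at 15.7, 14.3, 14 and 16.3 CPM in EEDcKO. The groups did not overlap in either fraction, and the changes were -1.001 ± 0.22 (SE, log2, adjusted p = 0.0014) in mTEChi and -0.67 ± 0.22 (adjusted p = 0.023) in mTEClo. The interaction was -0.33 ± 0.31 (SE, edgeR adjusted p = 0.67), so the fall in Eed RNA was not shown to differ between the fractions. The counts cover the whole gene, so RNA from the undeleted part of the allele is included.

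At an adjusted p under 0.05 and a difference of at least 2-fold, 320 genes (1.58% of those tested) were called for the interaction. The effect was lower in mTEChi for 196 of them (0.97%) and higher for 124 (0.614%). An unadjusted p under 0.05 was seen for 3029 genes, and the median interaction over all genes was 0.024. All 320 genes kept their sign under every setting that gave them a value. Every setting refits these libraries or a part of them, so a kept sign adds little. Of the 320, 130 kept an adjusted p under 0.05 in all 15 fits with 1 library left out (49 higher and 81 lower in mTEChi). The number of calls moved with the libraries used. Leaving out mTEClo Ctrl replicate 3 gave 178 calls and leaving out mTEClo Ctrl replicate 1 gave 200. With the 4 libraries of the lowest depth left out it was 91, of which 88 were among the 320. The 10 libraries of mice aged 1 to 3 days gave 780 calls, of which 231 were among the 320.

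**Figure D1:**
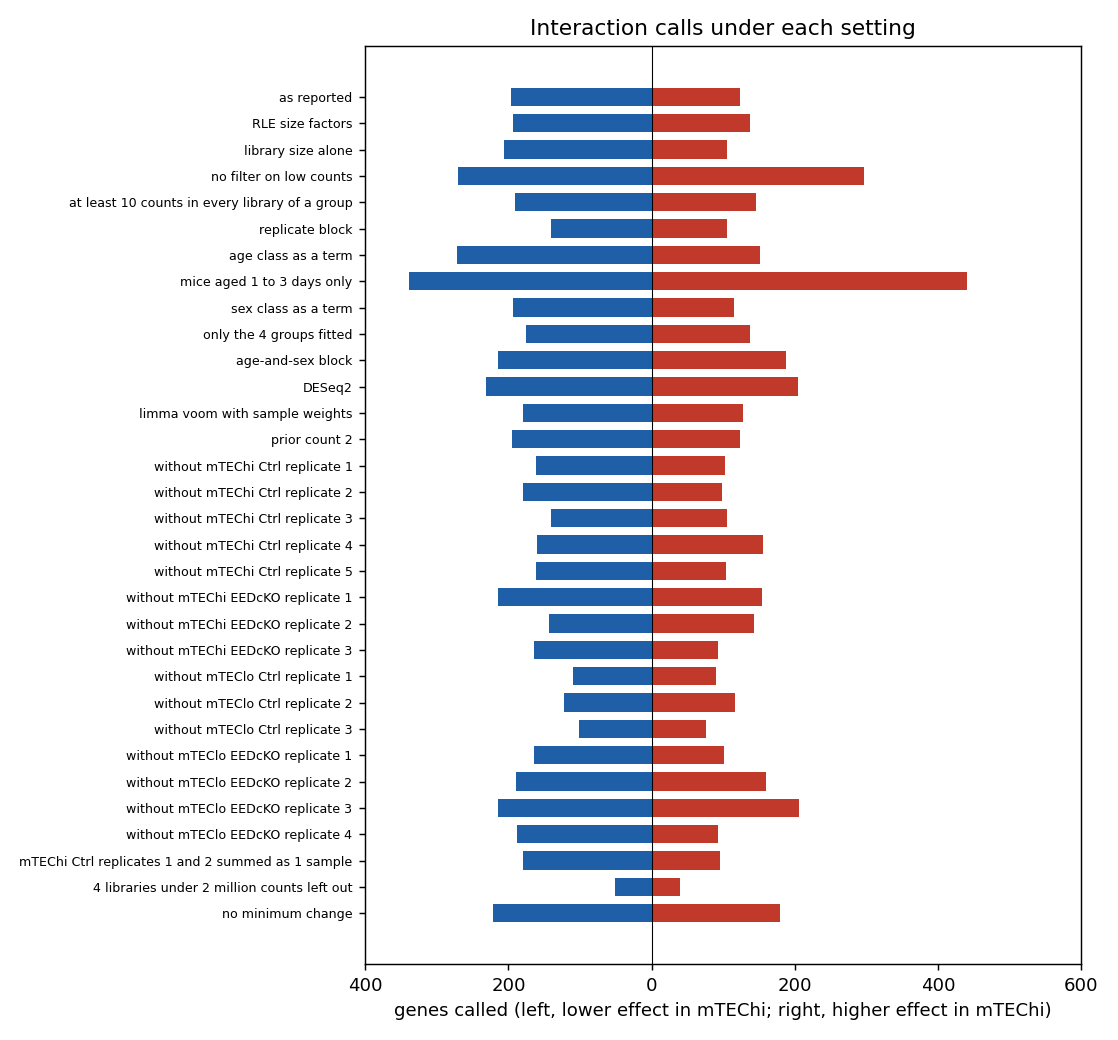
Number of genes called for the interaction under each setting, with genes of a higher EED effect in mTEChi to the right (red) and of a lower effect to the left (blue). The top bar is the fit reported (124 and 196), and the shortest bars belong to the fit without the 4 libraries of the lowest depth (40 and 51).

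**Figure D2:**
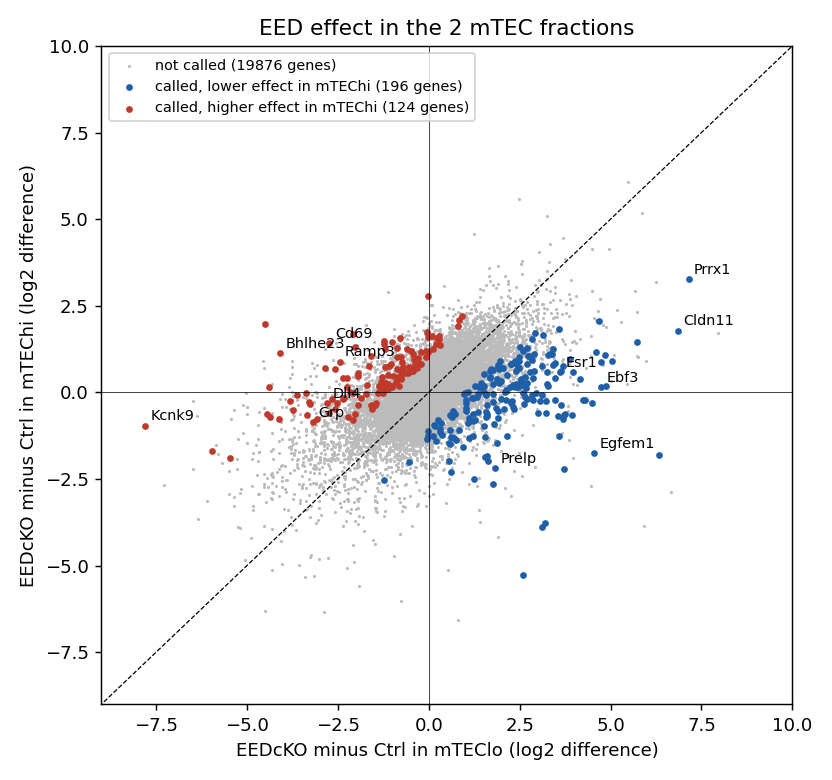
Effect of losing EED in mTEClo (horizontal axis) and mTEChi (vertical axis), as log2 differences between EEDcKO and Ctrl, for the 20196 genes tested. Each point is 1 gene, the dashed line marks equal effects, and the 196 genes called lower in mTEChi (blue) all lie to the right of it, many near an mTEChi effect of 0.

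The 196 genes with a lower effect in mTEChi were mostly genes that gained expression in mTEClo upon loss of EED without doing so in mTEChi. The change in mTEClo was called higher for 164 of them and lower for 1, and the change in mTEChi was called higher for 20 and lower for 33. In 133 genes the rise in mTEClo was the only change called, in 20 the gene rose in both fractions, in 11 it rose in mTEClo and fell in mTEChi, and in 21 the fall in mTEChi was the only change called. Over all genes tested, 9.51% were called higher and 6.22% lower in mTEClo EEDcKO, and 8.48% were called higher and 5.4% lower in mTEChi EEDcKO. These shares are part of the interaction itself and are given as a description. By group mean, mTEClo EEDcKO was the highest of the 4 groups for 157 of the 196 genes and mTEClo Ctrl the lowest for 150.

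The same genes were also read along the other axis, between the fractions. In Ctrl, 79 of the 196 were called higher in mTEChi than in mTEClo and 1 lower, and in EEDcKO none was called higher and 112 were called lower. Over all genes, 13.8% were higher and 6.92% lower in mTEChi of Ctrl, and 14.2% were higher and 7.67% lower in mTEChi of EEDcKO. For 31 genes the order turned from higher in mTEChi to higher in mTEClo, both with a call, in 48 the higher level in mTEChi was called in Ctrl alone, and in 80 the lower level in mTEChi was called in EEDcKO alone.

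The 124 genes with a higher effect in mTEChi were more mixed. The change in mTEClo was called lower for 72 of them and higher for none, and the change in mTEChi was called higher for 34 and lower for 2. Over all genes tested, 6.22% were lower and 9.51% higher in mTEClo EEDcKO, and 8.48% were higher and 5.4% lower in mTEChi EEDcKO. These changes are part of the interaction itself and are given as a description. A fall in mTEClo was the only change called in 63 genes, a rise in mTEChi the only one in 27, and 7 genes did both. In Ctrl, 57 of the 124 were called lower in mTEChi than in mTEClo and 21 (16.9%) higher, and in EEDcKO 1 was called lower and 51 higher. Over all genes, 6.92% were lower and 13.8% higher in mTEChi of Ctrl, and 7.67% were lower and 14.2% higher in mTEChi of EEDcKO. In 25 genes neither fraction's change was called alone.

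Among genes with a level of at least 10 CPM in 1 group whose adjusted p stayed under 0.05 without each of the 15 libraries in turn, those with the largest negative interaction were Egfem1, Fmo6, Cldn11, Gria2, Fibin, Plcl1, Ebf3, Ntrk3, Zim1, Col3a1, Osr2 and Prelp. They include transcription factors (Ebf3, of the early B cell factor family, Osr2, of the odd-skipped family, and the imprinted zinc finger gene Zim1), receptors of the nervous system (Gria2, a subunit of AMPA glutamate receptors, and Ntrk3, the receptor of neurotrophin 3), the tight junction protein Cldn11, and the matrix genes Col3a1 and Prelp. Their interactions ran from -6.31 for Egfem1 to -4.03 for Prelp, and in all 12 the change in mTEClo was called higher.

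Ebf3 (chr7:137193673-137314445, GRCm38, minus strand) had the smallest p among the negative genes. It was at 4.02, 5.22 and 2.23 CPM in mTEClo Ctrl and at 131, 104, 93.1 and 106 CPM in mTEClo EEDcKO. In mTEChi it was at 7.81, 10.3, 4.91, 9.16 and 10.2 CPM in Ctrl and at 6.14, 7.59 and 13.7 CPM in EEDcKO. The 4 mTEClo EEDcKO libraries thus stood above every other library, while the mTEChi groups overlapped. The change was 4.75 ± 0.42 in mTEClo (adjusted p = 5.59e-08) and 0.16 ± 0.38 in mTEChi (adjusted p = 0.79), and the interaction was -4.59 ± 0.58 (SE, edgeR adjusted p = 2.14e-04).

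Cldn11 (chr3:31149920-31164324, plus strand) was at 0.335, 0.348 and 1.12 CPM in mTEClo Ctrl and at 88.5, 78.7, 50.5 and 46.6 CPM in mTEClo EEDcKO. Its mTEChi values were 0, 1.15, 1.91, 3.67 and 2.79 CPM in Ctrl and 7.99, 9.76 and 4.99 CPM in EEDcKO. Here the mTEChi groups did not overlap either, and both changes were called, by 6.86 ± 0.65 in mTEClo and 1.78 ± 0.51 in mTEChi. The interaction was -5.08 ± 0.94 (SE, edgeR adjusted p = 0.0049).

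Egfem1 (chr3:29082023-29691209, plus strand), which codes for a protein with EGF-like domains, had the most negative difference of the genes named, at -6.31 ± 1.13 (SE, edgeR adjusted p = 0.0048). It was at 0.335, 0.696 and 0 CPM in mTEClo Ctrl, which is 3 reads over the 3 libraries, and at 12.7, 8.91, 9.94 and 8.76 CPM in mTEClo EEDcKO. In mTEChi it was at 3.35, 5.73, 1.91, 2.36 and 2.09 CPM in Ctrl and at 0.614, 1.52 and 0 CPM in EEDcKO. The mTEChi change of -1.75 ± 0.75 was not called (adjusted p = 0.079). With so few reads in mTEClo Ctrl, the ratio of EEDcKO to Ctrl in mTEClo was 25.5 with a 95% counting interval of 8.54 to 125. For Osr2, with 2 reads in mTEClo Ctrl, it was 65.1 (17.8 to 540.3), and its interaction of -4.26 ± 0.89 (SE, edgeR adjusted p = 0.011) was not called in mice of 1 to 3 days alone (adjusted p = 0.062) or in the fit with age and sex classes as blocks (adjusted p = 0.056).

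Prelp (chr1:133910304-133921414, minus strand), a leucine-rich proteoglycan of connective tissue, moved in opposite directions. It was at 7.37, 3.83 and 8.93 CPM in mTEClo Ctrl and at 20.4, 23.5, 38.1 and 11.5 CPM in mTEClo EEDcKO. Its mTEChi levels were 14.5, 7.45, 11.7, 11.5 and 12.5 CPM in Ctrl and 2.46, 3.04 and 1.87 CPM in EEDcKO. The groups did not overlap in either fraction, with a rise of 1.84 ± 0.37 in mTEClo (adjusted p = 6.34e-04) and a change of -2.20 ± 0.41 in mTEChi (adjusted p = 3.51e-04). Its interaction was -4.03 ± 0.55 (SE, edgeR adjusted p = 2.76e-04).

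Zim1 (chr7:6671269-6696450, minus strand) was at 1.68, 6.61 and 1.67 CPM in mTEClo Ctrl and 50.8, 47.4, 44.8 and 43.6 CPM in mTEClo EEDcKO, against 12.3, 7.45, 9.55, 6.81 and 7.43 CPM in mTEChi Ctrl and 1.84, 7.59 and 5.3 CPM in mTEChi EEDcKO. The mTEClo EEDcKO libraries lay above all others, and the mTEChi groups overlapped. Gria2 (chr3:80681450-80802835, minus strand) was likewise highest in mTEClo EEDcKO, at 4.69, 2.78 and 2.79 CPM in mTEClo Ctrl and 46.1, 41.7, 37.2 and 45.3 CPM in mTEClo EEDcKO, and at 6.14, 14.3, 10.1, 6.28 and 8.59 and 4.91, 1.74 and 5.3 CPM in mTEChi Ctrl and EEDcKO. Its mTEChi EEDcKO libraries all lay below the mTEChi Ctrl libraries. Ntrk3 (chr7:78175959-78738012, minus strand) was at 2.01, 6.26 and 5.58 CPM in mTEClo Ctrl and 149, 96.6, 62.4 and 47.8 CPM in mTEClo EEDcKO, with 16.7, 18.3, 17.2, 6.55 and 7.2 CPM in mTEChi Ctrl and 17.2, 8.46 and 9.05 CPM in mTEChi EEDcKO. Within mTEClo EEDcKO, the libraries of mice of 1 to 3 days (replicates 1 and 2) had the higher Ntrk3 levels, and all 4 still exceeded every other library. The interactions were -4.37 ± 0.62 (SE, edgeR adjusted p = 4.49e-04), -4.85 ± 0.86 (SE, edgeR adjusted p = 0.0037) and -4.50 ± 0.72 (SE, edgeR adjusted p = 0.0019).

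Besides Ebf3, the smallest p-values among the negative genes belonged to Lum, a further leucine-rich proteoglycan, Selenop, which carries selenium in plasma, and Esr1, the estrogen receptor alpha. Esr1 (chr10:4611593-5005614, plus strand) was at 6.7, 14.3 and 9.49 CPM in mTEClo Ctrl and at 163, 113, 100.5 and 124 CPM in mTEClo EEDcKO, against 20.6, 20.05, 13.9, 16.2 and 18.1 CPM in mTEChi Ctrl and 27.6, 27.8 and 23.1 CPM in mTEChi EEDcKO. Its mTEClo EEDcKO libraries were again the highest by far, and the interaction was -3.03 ± 0.40 (SE, edgeR adjusted p = 2.14e-04). Selenop was at 13.1, 11.5 and 14.5 CPM in mTEClo Ctrl and 55.8, 46.3, 46.1 and 33 CPM in mTEClo EEDcKO, and at 32.9, 27.5, 36, 27.5 and 45.5 CPM in mTEChi Ctrl and 14.1, 23.2 and 15.3 CPM in mTEChi EEDcKO. For Selenop the EEDcKO group was higher than Ctrl in mTEClo and lower in mTEChi, without overlap, though the mTEChi change of -0.92 ± 0.24 was under 2-fold. Its interaction was -2.73 ± 0.35 (SE, edgeR adjusted p = 2.14e-04), and that of Lum was -3.68 ± 0.47 (SE, edgeR adjusted p = 2.14e-04).

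**Figure D3:**
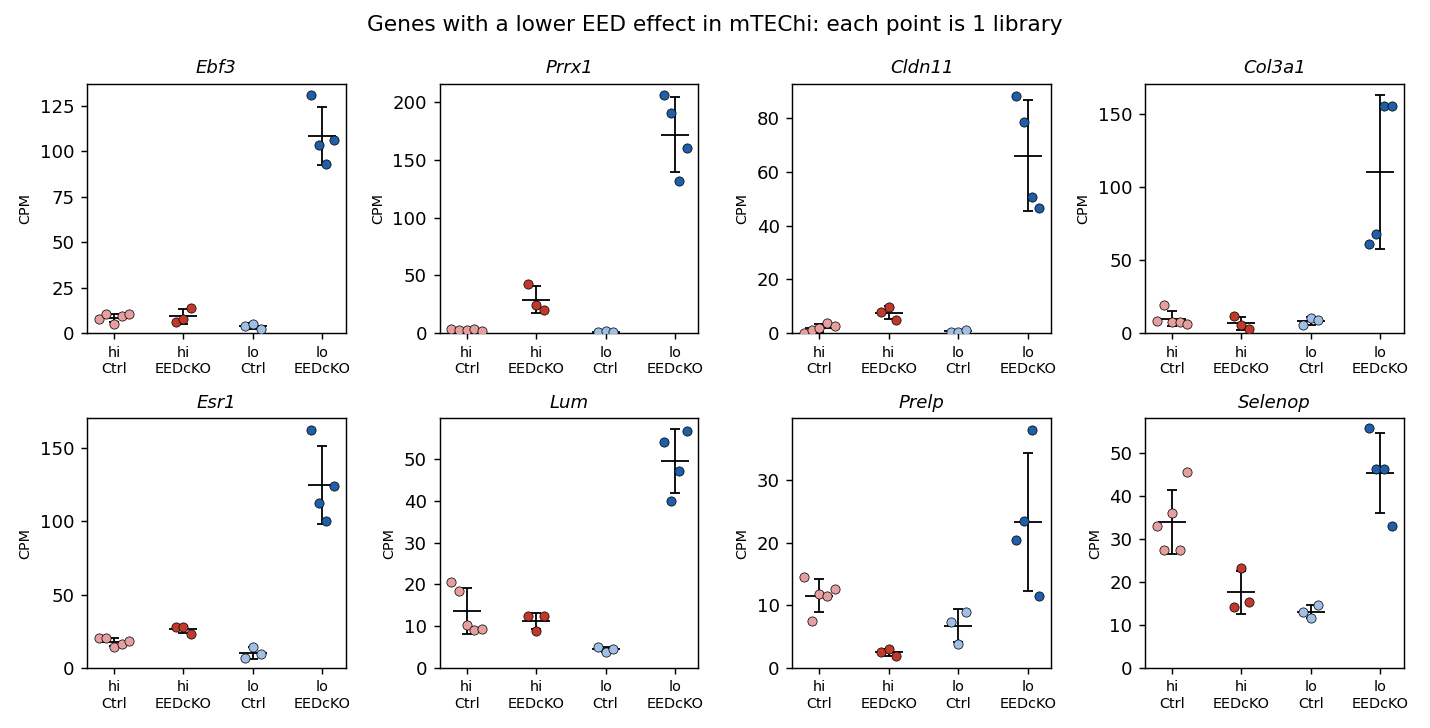
CPM of 8 genes with a lower EED effect in mTEChi, with 1 point per library for mTEChi Ctrl, mTEChi EEDcKO, mTEClo Ctrl and mTEClo EEDcKO and bars for the mean and SD. In 6 of the 8 panels all 4 mTEClo EEDcKO libraries lie above every other library, and in the Prelp and Selenop panels mTEChi Ctrl reaches into their range.

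Several of these genes are also expressed by fibroblasts. The summed level of 10 mesenchyme markers was 348 to 360.5 CPM in mTEClo Ctrl, 665 to 994 CPM in mTEClo EEDcKO, 496 to 699 CPM in mTEChi Ctrl and 813 to 1143 CPM in mTEChi EEDcKO, so it was higher with EED loss in both fractions. Of the 10 markers, 3 were called for the interaction, all negative (Col3a1, Lum and Dcn), where 0.97% of all genes tested were called negative. The others did not move alike. Col1a1 and Col1a2, the chains of type I collagen, had interactions of -0.11 and -1.20, Pdgfra one of -2.22 and Postn one of -1.42. Those of Vim, Pdgfrb and Thy1 were 0.71, 0.82 and 2.21, and none of these others was called for the interaction. Col1a1, Col1a2 and Pdgfra rose in both fractions, by 1.65, 3.89 and 3.69 in mTEClo and by 1.53, 2.69 and 1.48 in mTEChi. Pdgfrb and Vim changed by -0.95 and -0.77 in mTEClo. None of the 10 markers was at 0 in any group mean. The part of fibroblast RNA in these differences was not tested, and a change in the number of cells of a type cannot be told apart from a change in RNA per cell in bulk samples. Dcn, named here after its values were seen, was at 31.8, 35.8 and 40.7 CPM in mTEClo Ctrl and 217, 182, 206 and 236 CPM in mTEClo EEDcKO, and at 58, 64.7, 58.7, 51.3 and 77.1 and 64.5, 65.9 and 104 CPM in mTEChi Ctrl and EEDcKO (interaction -2.21 ± 0.29 (SE, edgeR adjusted p = 2.14e-04)).

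On the positive side, the same rule named Kcnk9, Bhlhe23, Cd69, Oas1e, Slc6a18, Ramp3, Fer1l6, Shisal1, Nefm, Aldh1l1, Mmp9 and Grp. They are a mixed group, with a background potassium channel (Kcnk9), a basic helix-loop-helix transcription factor (Bhlhe23), a lectin known as an early activation marker of lymphocytes (Cd69), an amino acid transporter of the kidney (Slc6a18), a neurofilament subunit (Nefm), an enzyme of folate metabolism (Aldh1l1), a gelatinase (Mmp9) and the gastrin-releasing peptide (Grp). The interactions ran from 2.33 for Grp to 6.83 for Kcnk9. Reads of Oas1e may be shared with near-identical members of its gene cluster, so its values are uncertain. The call of Fer1l6 was lost in mice of 1 to 3 days alone (log2 2.44, adjusted p = 0.083).

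Kcnk9 (chr15:72501089-72546340, minus strand) was at 10.7, 8.7 and 7.81 CPM in mTEClo Ctrl (71 reads in all) and had no read in any of the 4 mTEClo EEDcKO libraries. The mTEChi libraries held 30.7, 17.8, 20.5, 31.2 and 27.4 CPM in Ctrl and 10.4, 24.3 and 3.12 CPM in EEDcKO. Against a floor of 3 counts over the mTEClo EEDcKO group, the level in mTEClo was at least 44.9-fold lower in EEDcKO, and the exact 95% counting interval of the ratio begins at 35.6-fold. The fitted interaction of 6.83 ± 1.22 (SE, edgeR adjusted p = 0.0062) depends on the prior count and was not called in mice of 1 to 3 days alone (adjusted p = 0.071). The mTEChi change of -0.97 ± 0.42 was not called (adjusted p = 0.09).

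Bhlhe23 (chr2:180774381-180776900, minus strand) was at 4.36, 5.22 and 2.79 CPM in mTEClo Ctrl and at 0.668, 0.356, 0 and 0 CPM in mTEClo EEDcKO, the last being 3 reads in all. In mTEChi it was at 7.81, 9.74, 6.55, 10.7 and 9.06 CPM in Ctrl and at 8.6, 12.4 and 35.9 CPM in EEDcKO. The mTEChi groups overlapped, and replicate 3 (1 day) was the highest. In mTEClo, Ctrl exceeded EEDcKO by 20.9-fold with a 95% counting interval of 6.55 to 106. The interaction was 5.21 ± 0.91 (SE, edgeR adjusted p = 0.0037), with an mTEChi change of 1.13 ± 0.42 (adjusted p = 0.042). Slc6a18, with 2 reads in mTEClo EEDcKO, had a ratio of 26.6 (6.7 to 230.2) of Ctrl to EEDcKO in mTEClo.

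Ramp3 (chr11:6658521-6677475, plus strand), a partner protein of calcitonin-family receptors, had the smallest p of all 320 genes. It was at 24.8, 21.6 and 39.1 CPM in mTEClo Ctrl and at 2.67, 5.7, 6.77 and 5.01 CPM in mTEClo EEDcKO. Levels in mTEChi were 8.93, 9.74, 8.73, 11.3 and 13.9 CPM in Ctrl and 18.4, 21 and 19.3 CPM in EEDcKO. In neither fraction did the groups overlap, and they moved in opposite directions, by -2.45 ± 0.27 in mTEClo and by 0.88 ± 0.25 in mTEChi. Of these the mTEClo change was called, while that in mTEChi was under 2-fold (adjusted p = 0.0093). The interaction was 3.33 ± 0.37 (SE, edgeR adjusted p = 9.30e-05).

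Cd69 (chr6:129267325-129275436, minus strand) was at 5.03, 2.78 and 3.91 CPM in mTEClo Ctrl and 0.668, 0.713, 0.423 and 0.501 CPM in mTEClo EEDcKO, and at 10.6, 9.17, 13.9, 9.69 and 14.2 CPM in mTEChi Ctrl and 56.5, 8.46 and 32.1 CPM in mTEChi EEDcKO. The mTEChi EEDcKO libraries ranged widely, and replicate 2 lay below every mTEChi Ctrl library. Its interaction of 4.15 ± 0.77 (SE, edgeR adjusted p = 0.0053) was not called in mice of 1 to 3 days alone (3.14, adjusted p = 0.083). As a marker of lymphocytes it was set beside those cells. The summed level of 13 thymocyte markers was 27.9 to 44.9 CPM in mTEClo Ctrl, 22.3 to 43.4 CPM in mTEClo EEDcKO, 102 to 126 CPM in mTEChi Ctrl and 49.9 to 105 CPM in mTEChi EEDcKO. None of the 8 thymocyte markers tested was called for the interaction. The 6 B cell markers summed to 100.4 to 159 CPM in mTEClo Ctrl and 49.4 to 89.2 CPM in mTEClo EEDcKO, and to 221 to 253 CPM and 244 to 275 CPM in mTEChi. None of these 6 was called either, and the part of lymphocyte RNA in the Cd69 values was not tested.

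Mmp9 (chr2:164940780-164955850, plus strand) was at 182, 186 and 234 CPM in mTEClo Ctrl and 52.8, 113, 148 and 147 CPM in mTEClo EEDcKO, and at 53.6, 37.8, 66.8, 77.8 and 79.7 CPM in mTEChi Ctrl and 216, 164 and 194 CPM in mTEChi EEDcKO. The mTEChi EEDcKO values lay above every mTEChi Ctrl value, with a called rise of 1.57 ± 0.25 (adjusted p = 6.72e-05), and the interaction was 2.36 ± 0.36 (SE, edgeR adjusted p = 8.34e-04). Grp (chr18:65872820-65886596, plus strand) showed a fall in mTEClo, from 20.8, 25.4 and 22.3 CPM in Ctrl to 2.34, 2.49, 2.33 and 2.75 CPM in EEDcKO. In mTEChi it was at 33.5, 22.9, 41.5, 28.3 and 32.5 CPM in Ctrl and 18.4, 14.1 and 20.9 CPM in EEDcKO. The groups were apart in both fractions, but the mTEChi change of -0.85 ± 0.21 was under 2-fold, and the interaction was 2.33 ± 0.34 (SE, edgeR adjusted p = 5.33e-04). Shisal1, Nefm and Angptl2 were, like Mmp9, called higher in mTEChi EEDcKO, by 1.47 ± 0.30, 1.04 ± 0.33 and 1.03 ± 0.17. Ndrg3 and Rab11fip4, an effector of the recycling GTPase Rab11, had small p-values at modest sizes, with interactions of 1.55 ± 0.20 (SE, edgeR adjusted p = 2.14e-04) and 1.47 ± 0.18 (SE, edgeR adjusted p = 2.14e-04). For both, the change was called in mTEClo alone, at -1.37 ± 0.14 for Ndrg3 and -1.31 ± 0.13 for Rab11fip4.

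**Figure D4:**
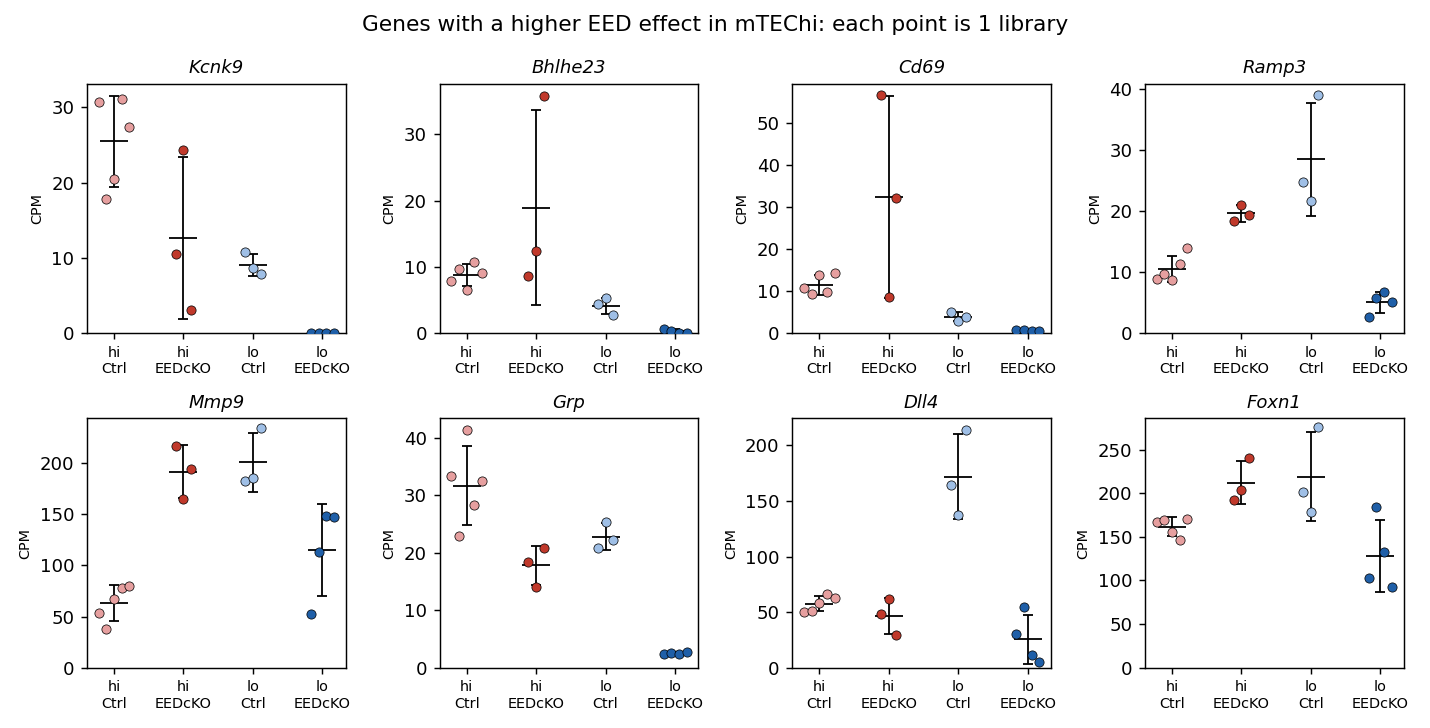
CPM of 8 genes with a higher EED effect in mTEChi, drawn per library as for the genes with a lower effect. In each panel mTEClo EEDcKO has a lower mean than mTEClo Ctrl, and for Kcnk9 all 4 mTEClo EEDcKO libraries are at 0.

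The fall in mTEClo went together with a lower summed level of markers of cortical thymic epithelium (cTEC). The summed level of 10 cTEC markers was 2883 to 4291 CPM in mTEClo Ctrl and 594 to 1504 CPM in mTEClo EEDcKO, against 878 to 1503 CPM in mTEChi Ctrl and 713 to 825 CPM in mTEChi EEDcKO. All 10 markers had a positive interaction, where the median over all genes was 0.024. Dll4 and Foxn1 were called, where 0.614% of all genes tested were called positive. Enpep did not fall, with means of 70.1 CPM in mTEClo Ctrl and 94.8 CPM in mTEClo EEDcKO (log2 0.43, edgeR adjusted p = 0.34). Its means in mTEChi were 41.5 CPM in Ctrl and 73.6 CPM in EEDcKO. The mean level of Psmb11, the cortex-specific proteasome subunit, was 263 CPM in mTEClo Ctrl and 35.8 CPM in mTEClo EEDcKO, and that of Prss16, the thymus-specific serine protease, was 623 CPM and 107 CPM, with interactions of 1.69 (adjusted p = 0.43) and 1.45 (adjusted p = 0.31). The gate removes Ly51+ cells, and the part of cTEC-type RNA in the genes that fell in mTEClo was not tested.

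Foxn1, the transcription factor of thymic epithelium whose Cre driver deletes EED here, was named after its values were seen. It was at 202, 178 and 276 CPM in mTEClo Ctrl and 103, 184, 133 and 92.6 CPM in mTEClo EEDcKO, and at 167, 169, 156, 146 and 171 CPM in mTEChi Ctrl and 192, 204 and 240.5 CPM in mTEChi EEDcKO. In mTEChi the EEDcKO libraries were the higher ones without overlap, and in mTEClo replicate 2 of EEDcKO lay within the Ctrl range. The changes of 0.40 ± 0.19 and -0.77 ± 0.20 were each under 2-fold. The interaction was 1.17 ± 0.27 (SE, edgeR adjusted p = 0.024), and the call failed in 3 of 15 fits with 1 library left out, most so without mTEClo Ctrl replicate 3 (log2 1.01, adjusted p = 0.094).

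Promoter sequence is shown for the genes with the largest differences in each direction for which RefSeq (GRCm38.p6) held a start site within 20 bases of that of GENCODE, so that the CpG sites, to which Polycomb complexes are known to be recruited when they lie densely, can be seen beside the values above. The 250 bases before the RefSeq start are given 5′ to 3′ with each CpG in capitals. Bhlhe23 (chr2:180776901-180777150, minus strand) has 13 CpG sites, Ramp3 (chr11:6658283-6658532, plus strand) 13, Cldn11 (chr3:31149670-31149919, plus strand) 19 and Gria2 (chr3:80802836-80803085, minus strand) 19.
Bhlhe23: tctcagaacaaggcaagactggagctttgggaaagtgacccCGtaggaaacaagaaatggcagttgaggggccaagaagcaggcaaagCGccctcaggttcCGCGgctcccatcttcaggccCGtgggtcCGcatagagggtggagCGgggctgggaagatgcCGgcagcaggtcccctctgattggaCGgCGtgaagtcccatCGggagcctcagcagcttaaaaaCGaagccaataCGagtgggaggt
Ramp3: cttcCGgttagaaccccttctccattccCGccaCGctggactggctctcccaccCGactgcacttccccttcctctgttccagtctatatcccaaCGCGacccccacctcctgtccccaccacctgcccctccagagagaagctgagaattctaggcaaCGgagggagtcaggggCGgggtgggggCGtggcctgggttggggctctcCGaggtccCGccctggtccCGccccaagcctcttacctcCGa
Cldn11: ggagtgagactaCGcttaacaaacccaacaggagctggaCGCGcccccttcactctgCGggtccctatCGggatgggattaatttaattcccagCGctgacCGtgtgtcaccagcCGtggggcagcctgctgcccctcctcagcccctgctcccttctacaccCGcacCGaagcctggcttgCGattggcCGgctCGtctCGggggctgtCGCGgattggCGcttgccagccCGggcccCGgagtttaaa
Gria2: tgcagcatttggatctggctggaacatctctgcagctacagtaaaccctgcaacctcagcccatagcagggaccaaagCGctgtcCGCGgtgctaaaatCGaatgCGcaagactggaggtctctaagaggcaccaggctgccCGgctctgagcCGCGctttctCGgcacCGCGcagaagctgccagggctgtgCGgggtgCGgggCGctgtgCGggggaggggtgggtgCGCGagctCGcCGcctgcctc
The first pair belong to genes with a higher effect in mTEChi and the last pair to genes with a lower effect. These promoters were picked by the size of the difference and say nothing of CpG content in the called genes as sets. A comparison of CpG content over all called genes was void, since only 65.3% of the positive and 70.9% of the negative genes, and 66.9% of all genes tested, matched a promoter.

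PRC2 is best known for holding developmental regulators silent, so lists of these were counted. Of 25 Hox genes tested, which pattern the body axis, 2 were called, both negative (8%, against 1.58% of all genes), and 23 were not. The median interaction over the 25 was -1.32, against 0.024 over all genes, and 19 of the 25 values were negative. The median EED effect was 1.91 in mTEClo, where 15 of the 25 were called higher, and 0.73 in mTEChi, where 4 were called higher and 3 lower. Shares over all genes tested were 9.51% higher in mTEClo, and 8.48% higher and 5.4% lower in mTEChi. Hoxc8 was at 3.02, 2.43 and 1.12 CPM in mTEClo Ctrl and 4.68, 3.92, 7.83 and 4.76 CPM in mTEClo EEDcKO, and at 7.81, 5.16, 11.7, 9.95 and 7.2 CPM in mTEChi Ctrl and 2.46, 5.64 and 1.87 CPM in mTEChi EEDcKO. For Hoxc8 the EEDcKO libraries were higher in mTEClo and, but for replicate 2 above the lowest Ctrl value, lower in mTEChi. The interaction was -2.47 ± 0.60 (SE, edgeR adjusted p = 0.031) for Hoxc8 and -2.55 ± 0.66 (SE, edgeR adjusted p = 0.042) for Hoxc9. Neither call was stable. The call of Hoxc8 failed in 8 of 15 fits with 1 library left out, with the weakest value without mTEClo Ctrl replicate 3 (log2 -2.20, adjusted p = 0.099), and the call of Hoxc9 failed in 12 of 15 fits with 1 library left out, with the weakest value without mTEClo Ctrl replicate 2 (log2 -2.07, adjusted p = 0.15).

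Among 130 other developmental transcription factors tested, 6 were called negative, among them Ebf3, Osr2, Prrx1, Gata6 and Lmx1b, and 1 positive (Hand1), which is 5.38% of the list against 1.58% of all genes, while 123 were not called. The median interaction of this list was -0.35, and the EED effect was called higher for 61 of its members in mTEChi and for 62 in mTEClo, where 8.48% and 9.51% of all genes were. Prrx1, a homeobox factor of limb and face mesenchyme, rose in both fractions. It was at 0.67, 2.09 and 0.558 CPM in mTEClo Ctrl and 206, 190.3, 132 and 160.2 CPM in mTEClo EEDcKO, and at 3.91, 2.86, 2.46, 3.67 and 1.86 CPM in mTEChi Ctrl and 42.4, 24.3 and 19.96 CPM in mTEChi EEDcKO. The groups were apart in both fractions, by 7.15 ± 0.54 in mTEClo and 3.27 ± 0.42 in mTEChi, and the interaction was -3.87 ± 0.81 (SE, edgeR adjusted p = 0.011). Without mTEClo Ctrl replicate 1 it was -3.49 (adjusted p = 0.053).

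Gata6, a factor of endoderm and heart, rose likewise in both fractions, from 0.335, 0.696 and 0.558 CPM to 14, 13.9, 15.4 and 14.8 CPM in mTEClo and from 3.35, 2.86, 2.73, 2.88 and 3.48 CPM to 13.5, 8.46 and 16.8 CPM in mTEChi. All EEDcKO libraries exceeded all Ctrl libraries, and the smaller gain in mTEChi started from a higher Ctrl level. The interactions were -2.65 ± 0.64 (SE, edgeR adjusted p = 0.03) for Gata6 and -2.19 ± 0.53 (SE, edgeR adjusted p = 0.034) for Lmx1b. Hand1, a factor of heart and trophoblast, was at 5.36, 8.35 and 1.67 CPM in mTEClo Ctrl and 0, 0.356, 0.634 and 0 CPM in mTEClo EEDcKO, and at 24, 23.5, 20.2, 16 and 19.7 CPM in mTEChi Ctrl and 13.5, 13.7 and 9.05 CPM in mTEChi EEDcKO, with an interaction of 3.34 ± 0.74 (SE, edgeR adjusted p = 0.019). Its mTEChi groups did not overlap, but that change was not called (-0.77 ± 0.35). When each library was left out in turn, the call of Gata6 failed in 5 of 15 fits, that of Lmx1b in 8 and that of Hand1 in 1. Their weakest values came without mTEClo Ctrl replicate 1 for Gata6 (-2.33), and without mTEClo Ctrl replicate 2 for Lmx1b (-1.82) and Hand1 (2.88).

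The genes of the Polycomb complexes and of the cell cycle held no call. None of 12 PRC2 subunits and none of 22 PRC1 subunits passed, with median interactions of -0.28 and 0.057. Ezh2, the methyltransferase of PRC2, was at 93.2, 86.5, 73.7, 73.6 and 71.1 CPM in mTEChi Ctrl and 47.3, 42.7 and 35.2 CPM in mTEChi EEDcKO, and at 63, 53.2 and 63.1 CPM in mTEClo Ctrl and 58.8, 51, 38.7 and 55.8 CPM in mTEClo EEDcKO. The mTEChi groups were apart and the mTEClo groups overlapped, but the interaction was -0.70 ± 0.22 (SE, edgeR adjusted p = 0.11) and did not pass. Cdkn2a, a cell cycle inhibitor and well-known PRC2 target, rose in both fractions, by 1.92 ± 0.32 in mTEChi and 3.43 ± 0.44 in mTEClo. It was at 6.14, 2.29, 2.73, 2.09 and 5.81 CPM and 8.6, 19.1 and 14 CPM in mTEChi and at 2.35, 0.696 and 0.558 CPM and 11.7, 14.6, 15.7 and 15 CPM in mTEClo of Ctrl and EEDcKO. All EEDcKO libraries were above all Ctrl libraries, and the interaction of -1.51 ± 0.57 (SE, edgeR adjusted p = 0.19) did not pass. None of 10 CDK inhibitors and D cyclins and none of 35 cell division genes was called, with medians of -0.52 and 0.32.

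The genes that mark mature mTECs gave no call. All 13 mature mTEC genes had a positive interaction, with a median of 0.98 and a range of 0.26 to 1.31, and none was called. In that list 5 genes were called lower in mTEClo EEDcKO and 1 was called higher in mTEChi EEDcKO, where 6.22% and 8.48% of all genes were. Aire was at 750.4, 801, 505, 460.1 and 551 CPM in mTEChi Ctrl and 1063, 599 and 781 CPM in mTEChi EEDcKO, and at 322, 324 and 329.8 CPM in mTEClo Ctrl and 123, 232, 309 and 60.1 CPM in mTEClo EEDcKO. The 4 mTEClo EEDcKO libraries were all below the mTEClo Ctrl libraries and spread over a wide range, and the mTEChi groups overlapped. The interaction of Aire was 1.25 ± 0.56 (SE, edgeR adjusted p = 0.29). It passed in the mice of 1 to 3 days alone (1.37, adjusted p = 0.015) and in the fit with age and sex classes as blocks (1.34, adjusted p = 0.0028). The 11 MHC class II genes, 13 noncanonical NF-kB genes, 15 thymic chemokines and 30 interferon-stimulated genes tested held no call, with medians of 0.34, 0.42, 0.55 and 0.41. Of 23 basal and progenitor mTEC genes 1 was called (4.35%, against 1.58% of all genes), Col17a1, with a negative interaction.

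Of 43 collagen genes tested, 4 were called (9.3%, against 1.58% of all genes), all negative, and 39 were not, with a list median of -0.18. They are the fibrillar Col3a1 and 3 genes of the epithelial basement membrane zone, Col17a1, Col7a1 and Col4a6. Col7a1, which forms anchoring fibrils, was at 16.8, 33.7 and 31.2 CPM in mTEClo Ctrl and 272, 299.7, 210.4 and 317 CPM in mTEClo EEDcKO, and at 20.6, 26.4, 25.4, 28 and 36.9 CPM in mTEChi Ctrl and 41.8, 84.8 and 50.8 CPM in mTEChi EEDcKO. Col4a6 was at 7.04, 8.35 and 12.3 CPM in mTEClo Ctrl and 61.4, 57.7, 33.4 and 35.5 CPM in mTEClo EEDcKO, and at 6.14, 6.3, 7.91, 8.9 and 6.5 and 7.99, 7.59 and 8.73 CPM in mTEChi. In both genes the mTEClo EEDcKO libraries stood above all others. Col17a1, of the hemidesmosome, rose in mTEClo and was under 2-fold higher in mTEChi EEDcKO, at 55.6, 53.6 and 45.2 CPM in Ctrl and 166, 150.0, 225 and 227 CPM in EEDcKO of mTEClo and 78.1, 86.5, 114, 80.4 and 87.6 CPM and 121, 154 and 186 CPM of mTEChi. The interactions were -2.23 ± 0.44 (SE, edgeR adjusted p = 0.0073) for Col7a1, -2.22 ± 0.46 (SE, edgeR adjusted p = 0.01) for Col4a6, -1.11 ± 0.23 (SE, edgeR adjusted p = 0.01) for Col17a1 and -4.37 ± 0.85 (SE, edgeR adjusted p = 0.007) for Col3a1, and each kept an adjusted p under 0.05 without any single library, though that of Col17a1 was under 2-fold without mTEClo Ctrl replicate 3 (-0.99). The call of Col17a1 was also lost in mice of 1 to 3 days alone (log2 -0.71, adjusted p = 0.094) and with the age-and-sex block (adjusted p = 0.076), and those of Col3a1, Col7a1 and Col4a6 without the 4 libraries of the lowest depth.

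Col3a1 (chr1:45311538-45349706, plus strand) was at 5.36, 10.4 and 8.93 CPM in mTEClo Ctrl and 61.1, 67.7, 155 and 155 CPM in mTEClo EEDcKO, and at 8.37, 18.9, 7.64, 7.33 and 6.27 CPM in mTEChi Ctrl and 11.7, 5.42 and 2.81 CPM in mTEChi EEDcKO. The mTEClo EEDcKO libraries of mice of 4 and 6 days were higher than those of mice of 1 to 3 days, and all 4 exceeded every other library. In 1 to 3 days alone the interaction was -3.65 (adjusted p = 0.0010).

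Signaling lists gave few calls. In the Notch list 2 of 23 genes were called (8.7%, against 1.58% of all genes), both positive, and the list median was 0.12. Dll4, the ligand with which thymic epithelium commits progenitors to the T lineage, was at 164, 138 and 214 CPM in mTEClo Ctrl and 30.4, 54.9, 11.6 and 5.26 CPM in mTEClo EEDcKO, and at 50.2, 51, 58.4, 66 and 62.7 CPM in mTEChi Ctrl and 47.9, 61.6 and 29.6 CPM in mTEChi EEDcKO. It fell in mTEClo by 2.80 ± 0.46 on the log2 scale without overlap of the groups, and the mTEChi groups overlapped. Its interaction was 2.49 ± 0.63 (SE, edgeR adjusted p = 0.037) and that of Hey1, a target of Notch, 1.28 ± 0.34 (SE, edgeR adjusted p = 0.048). The call of Dll4 failed in 9 of 15 fits with 1 library left out, with the weakest value without mTEClo Ctrl replicate 3 (log2 2.34, adjusted p = 0.1), and the call of Hey1 failed in 12 of 15 fits with 1 library left out, with the weakest value without mTEClo Ctrl replicate 3 (log2 1.17, adjusted p = 0.12). In the Wnt list 2 of 49 genes were called (4.08%, against 1.58% of all genes), Lgr5, a receptor of R-spondins (-2.88 ± 0.64 (SE, edgeR adjusted p = 0.018)), and Wnt5b, a ligand (-3.76 ± 0.99 (SE, edgeR adjusted p = 0.048)), both negative. The list median was -0.10. The call of Wnt5b failed in 13 of 15 fits with 1 library left out, with the weakest value without mTEClo Ctrl replicate 1 (log2 -3.06, adjusted p = 0.16), and the call of Lgr5 failed in 2 of 15 fits with 1 library left out, with the weakest value without mTEClo Ctrl replicate 1 (log2 -2.73, adjusted p = 0.062).

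Genes of the mimetic mTECs, which resemble cells of other tissues, were called in 2 lists. Of 16 ciliated cell genes 2 were called (12.5%, against 1.58% of all genes), both negative. Trp73, a factor of the p53 family that drives multiciliation, was at 14.4, 10.1 and 12.8 CPM in mTEClo Ctrl and 48.4, 37.4, 45.3 and 39.8 CPM in mTEClo EEDcKO, and at 12.8, 16, 13.9, 16.8 and 15.1 CPM in mTEChi Ctrl and 10.4, 19.1 and 12.2 CPM in mTEChi EEDcKO. Only mTEClo EEDcKO stood apart among these 4 groups (interaction -1.84 ± 0.29 (SE, edgeR adjusted p = 0.0013)). Dnah11, a dynein of the ciliary axoneme, had -2.28 ± 0.44 (SE, edgeR adjusted p = 0.0069). The list's other 14 genes were not called, and its median was -0.38.

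Of 18 enterocyte genes 3 were called (16.7%, against 1.58% of all genes), 2 negative and 1 positive, with a median of 0.27, and the EED effect was called lower for 8 of them in mTEChi and 10 in mTEClo, where 5.4% and 6.22% of all genes were. Vil1, the actin bundler of the brush border, fell in both fractions, from 48, 44.1, 61.4, 56.8 and 49.2 CPM to 6.76, 7.16 and 12.8 CPM in mTEChi and from 20.1, 23.3 and 15.1 CPM to 8.35, 8.91, 9.73 and 6.51 CPM in mTEClo. Mttp, which loads lipid onto lipoproteins, went from 61.9, 76.8, 53.2, 52.4 and 47.8 CPM to 11.1, 15.6 and 15.3 CPM in mTEChi, where it fell, and from 24.5, 19.1 and 14 CPM to 14, 16, 11.6 and 12.3 CPM in mTEClo, where the change was not called. Lypd8 went from 26.8, 20.9 and 10.0 CPM to 0.334, 0.356, 0.846 and 0 CPM in mTEClo and from 93.7, 90.5, 78, 59.2 and 69.2 CPM to 17.8, 8.46 and 37.4 CPM in mTEChi, a fall in both. The interactions were -1.29 ± 0.31 (SE, edgeR adjusted p = 0.031), -1.47 ± 0.35 (SE, edgeR adjusted p = 0.03) and 3.58 ± 0.84 (SE, edgeR adjusted p = 0.025). The call of Vil1 failed in 7 of 15 fits with 1 library left out, with the weakest value without mTEChi EEDcKO replicate 2 (log2 -1.06, adjusted p = 0.11), the call of Mttp failed in 8 of 15 fits with 1 library left out, with the weakest value without mTEClo Ctrl replicate 3 (log2 -1.27, adjusted p = 0.11), and the call of Lypd8 failed in 4 of 15 fits with 1 library left out, with the weakest value without mTEChi EEDcKO replicate 3 (log2 2.77, adjusted p = 0.087). No call was seen among 14 tuft, 10 microfold, 20 endocrine, 23 muscle, 19 keratinocyte, 10 ionocyte and 15 goblet genes, nor among 27 tissue autoantigens and 41 keratins, with list medians from -0.34 to 0.55. Of 37 imprinted genes Zim1 was called negative and Asb4 positive (2.45 ± 0.61 (SE, edgeR adjusted p = 0.037)), which is 5.41% of the list against 1.58% of all genes. The list median was -0.25. The call of Asb4 failed in 8 of 15 fits with 1 library left out, with the weakest value without mTEClo Ctrl replicate 1 (log2 1.75, adjusted p = 0.26).

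Libraries that are not part of the interaction allowed the same genes to be followed in Aire-deficient mice, where AireEEDdKO lacks both Aire and EED (3 libraries of each fraction) and AireKO lacks Aire alone (3 libraries of mTEChi), all from mice of 4 or 6 days. Of the 196 negative genes, 93 (47.4%) were called lower in mTEChi than in mTEClo of AireEEDdKO and 6 (3.06%) higher, where 10.6% and 10.4% of all genes tested were. The median difference between the fractions was -1.07 over the 196 genes and -0.028 over all genes. Of the 124 positive genes, 24 (19.4%) were called higher and 16 (12.9%) lower. No neonatal AireKO library of mTEClo was analysed here, so the interaction itself could not be formed in neonates without Aire.

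Cldn11 was at 17.2, 17.5 and 40.0 CPM in mTEClo AireEEDdKO and at 0, 2.29 and 2.86 CPM in mTEChi AireEEDdKO, Col3a1 at 89.5, 159 and 337 and 7.59, 1.72 and 18.1 CPM, and Prrx1 at 111, 101 and 134 and 4.67, 12 and 35 CPM. Trp73 was at 47.2, 32 and 36 CPM in mTEClo and 1.17, 2.86 and 2.55 CPM in mTEChi. In these 4 genes each mTEClo library was above each mTEChi library, with differences of -3.67 ± 0.58, -4.25 ± 0.58, -2.61 ± 0.37 and -4.06 ± 0.29. In mTEChi AireKO, which keeps EED, Cldn11 was at 0, 0 and 0.841 CPM and Col3a1 at 0, 1.37 and 0 CPM. Prrx1 was there at 1.36, 0 and 0.56 CPM and Trp73 at 0.679, 0.683 and 0.841 CPM. Their mTEChi Ctrl ranges were 0 to 3.67, 6.27 to 18.9, 1.86 to 3.91 and 12.8 to 16.8 CPM. The part of Aire loss in this order was not tested. Lum and Dcn did not share this order, with 30.3, 38.3 and 51.9 CPM of Lum in mTEClo and 84.7, 47 and 40.1 CPM in mTEChi, and 192, 152 and 189 CPM and 349, 255 and 186 CPM of Dcn.

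Within Aire-deficient mTEChi, the comparison of AireEEDdKO with AireKO gave the EED effect without Aire. There 51 of the 196 negative genes (26%) were called higher and 9 (4.59%) lower, against 6.69% and 2.78% of all genes tested, and 25 of the 124 positive genes (20.2%) were called higher and 3 (2.42%) lower. Zim1 was at 0, 0.683 and 0.841 CPM in AireKO and 11.7, 4.01 and 4.14 CPM in AireEEDdKO, and Ebf3 at 3.4, 2.73 and 3.36 CPM and 14.6, 6.87 and 8.59 CPM, so both were higher with EED loss (3.29 ± 0.81, adjusted p = 0.0064, and 1.603 ± 0.55, adjusted p = 0.048). In the presence of Aire their mTEChi changes were -0.64 ± 0.43 and 0.16 ± 0.38. Whether the effect in mTEChi differed between mice with and without Aire was not tested.

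The adult wild-type mice, male and female and aged 4 or 5 weeks, have mTEChi (n = 7) and mTEClo (n = 8) libraries in a separate table. There, 180 of the negative and 119 of the positive genes were tested. Of the 180, 64 (35.6%) were called higher in mTEChi and 27 (15%) lower. Of the 119, 51 (42.9%) were called higher and 28 (23.5%) lower. Over the 18546 genes tested in both tables, 23.4% were called higher and 11.5% lower. Kcnk9, Bhlhe23, Cd69 and Ramp3 were higher in adult mTEChi, on the log2 scale by 5.05, 5.87, 3.59 and 2.72, and so were Ebf3 by 2.12 and Zim1 by 3.19, whereas Prrx1, Ntrk3 and Esr1 were lower, at -4.03, -2.05 and -1.28.

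**Figure D5:**
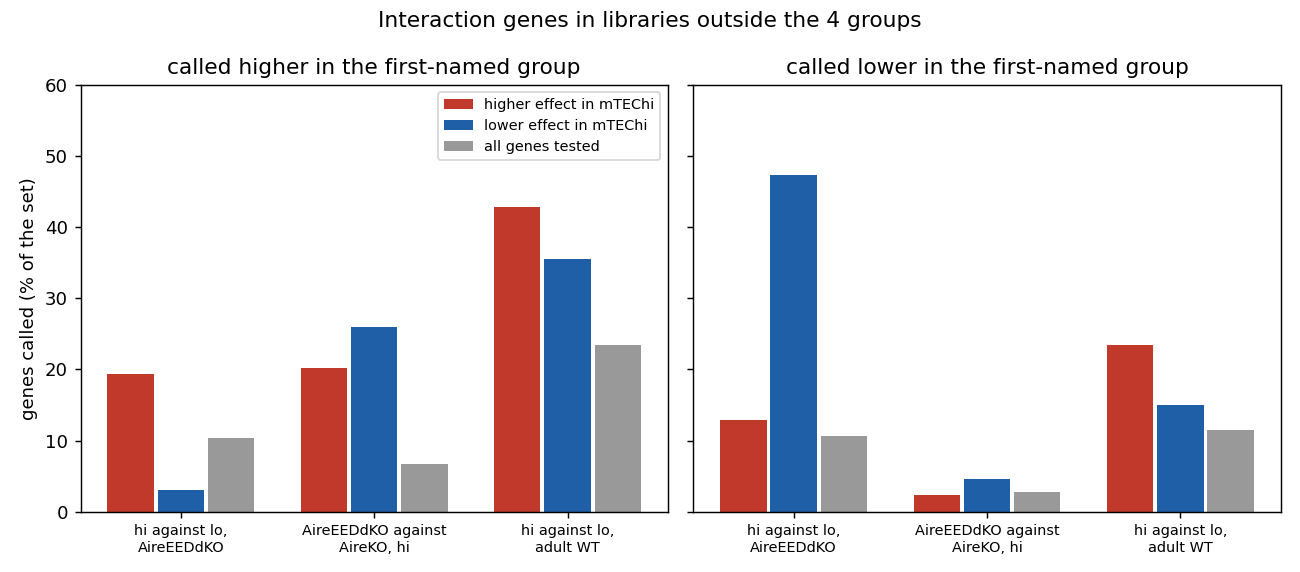
Share of the genes with a higher EED effect in mTEChi (red), with a lower one (blue) and of all genes tested (grey) that were called higher (left) or lower (right) in 3 comparisons of libraries outside the 4 groups. The blue bar for lower in mTEChi of AireEEDdKO reaches 47.4%, against 10.6% of all genes.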

How the data were processed

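Bulk RNA was sequenced from sorted neonatal mTECs with a random-primed total RNA protocol (RamDA-seq) that does not mark strand. The authors trimmed reads (fastp 0.20.0), aligned them to mm10 with STAR 2.7.3a, removed alignments of low mapping quality (SAMtools 1.9) and duplicates (Picard 2.21.1), and deposited whole-number counts per Ensembl gene from htseq-count 0.11.2, counted without strand, so a gene and an antisense partner cannot be told apart. The normalized tables they also deposited were not used.

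The 24 neonatal libraries in 7 groups, which share 1 estimate of the spread, were fitted with edgeR 4.0.16 in R 4.3.3 (filterByExpr, TMM factors, quasi-likelihood test of the interaction contrast, prior count 0.125), with Benjamini-Hochberg adjustment over the 20196 genes. The adult libraries were fitted apart. Genes were called at an adjusted p under 0.05 where the change reached 2-fold. Symbols matched all the genes named, and coordinates are those of GENCODE M21 on GRCm38. Genes were named by a rule: the 12 largest differences and the 4 smallest p-values in each direction among called genes with at least 10 CPM in 1 group, no model or pseudogene symbol, and an adjusted p under 0.05 without each library in turn, then Eed, Ezh2, Cdkn2a, Aire and the called members of the gene lists. Foxn1 and Dcn were added after their values were seen, and 1 called list member is not reported here. The lists, markers and rule were chosen with earlier results of these data known. The fit was tested on simulated data, in which each gene had the same mean in all groups. A change was then put into mTEChi EEDcKO alone, for genes above a minimum mean level. Changes in mTEClo were not simulated, so the rates may not hold for them. With a true interaction of 1, 2 and 3 on the log2 scale, the fit called 7 of 50, 83 of 100 and 46 of 50 changed genes. There were 9 false calls. Differences near 2-fold were thus mostly missed, so a list without a call may still hold some. DESeq2 1.42.0 and limma 3.58.1 were alternatives. No library was dropped as a duplicate. Counting intervals are exact binomial intervals of the ratio of summed reads, and with the floor of 3 counts they cover counting error only.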

Additional observations from a re-analysis of the deposited data

Results flagged for a closer look

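The effect of losing EED differed between the fractions, by the test of the interaction itself, for 51 named genes, with the log2 difference given for each. The effect was higher in mTEChi for Kcnk9 (6.83), Bhlhe23 (5.21), Cd69 (4.15), Oas1e (3.82), Slc6a18 (3.66), Lypd8 (3.58), Hand1 (3.34), Ramp3 (3.33), Fer1l6 (3.03), Shisal1 (2.71), Nefm (2.61), Dll4 (2.49), Asb4 (2.45), Aldh1l1 (2.39), Mmp9 (2.36), Grp (2.33), Angptl2 (1.78), Ndrg3 (1.55), Rab11fip4 (1.47), Hey1 (1.28) and Foxn1 (1.17). It was lower in mTEChi for Col17a1 (-1.11), Vil1 (-1.29), Mttp (-1.47), Trp73 (-1.84), Lmx1b (-2.19), Dcn (-2.21), Col4a6 (-2.22), Col7a1 (-2.23), Dnah11 (-2.28), Hoxc8 (-2.47), Hoxc9 (-2.55), Gata6 (-2.65), Selenop (-2.73), Lgr5 (-2.88), Esr1 (-3.03), Lum (-3.68), Wnt5b (-3.76), Prrx1 (-3.87), Prelp (-4.03), Osr2 (-4.26), Col3a1 (-4.37), Zim1 (-4.37), Ntrk3 (-4.50), Ebf3 (-4.59), Plcl1 (-4.60), Fibin (-4.69), Gria2 (-4.85), Cldn11 (-5.08), Fmo6 (-5.93) and Egfem1 (-6.31). These genes were named for this difference or as called members of a list, so their number says nothing of the share of such genes.

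In the groups of 4 and 5 libraries, 3 values stood far from the rest of their group in 109 groups of named genes looked at, where chance gives about 1 in 20. Asb4 in mTEClo EEDcKO replicate 4 was at 1.00 CPM, with the other libraries at 2.34 to 2.54 CPM. Col17a1 in mTEChi Ctrl replicate 3 was at 114 CPM, with the others at 78.1 to 87.6 CPM. Col3a1 in mTEChi Ctrl replicate 2 was at 18.9 CPM, with the others at 6.27 to 8.37 CPM.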

How the results depend on the processing

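The 320 calls (124 higher and 196 lower in mTEChi) became 780 in mice of 1 to 3 days (441 and 339) and 566 without the filter on low counts (296 higher, over 44971 genes), and the higher calls became 205 with DESeq2 and 188 with the age-and-sex block. The cause of these moves was not tested, apart from the larger number of genes tested without the filter. Without the 4 libraries of the lowest depth, a setting chosen after seeing the data, there were 91 calls (40 and 51), and with mTEChi Ctrl replicates 1 and 2 summed there were 276. Leaving out each library in turn gave 178 to 421 calls, 76 to 206 of them higher and 102 to 215 lower. The lower calls were 102 without mTEClo Ctrl replicate 3, 110 without replicate 1 and 123 without replicate 2, and the higher calls were 76 without mTEClo Ctrl replicate 3 and 206 without mTEClo EEDcKO replicate 3. The counts under the other settings stayed within 1.5 times those reported. The interaction of Eed, not called, turned to 0.030 with the age-and-sex block. No other named gene changed sign under any setting.

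With the replicate number as a block there were 246 calls (105 and 141), of which 184 were among the 320, and 11 named genes lost theirs. Same-numbered libraries share only a number: their deviations from the group means correlated at -0.19 to 0.15 over 19 pairs, with 1 pair over 0.1. Over the 6 pairs of mTEChi and mTEClo libraries of 1 genotype, age and sex class they correlated at 0.046 to 0.17, with 3 over 0.1. With these classes as blocks 8 named genes lost their call (Hand1, Dll4, Hey1, Col17a1, Lmx1b, Hoxc9, Wnt5b and Osr2). In mice of 1 to 3 days 12 did (Kcnk9, Cd69, Lypd8, Fer1l6, Asb4, Col17a1, Vil1, Lmx1b, Hoxc8, Hoxc9, Wnt5b and Osr2), and without the 4 libraries of the lowest depth 25 did, Egfem1, Gria2, Fibin, Prrx1, Col3a1 and Kcnk9 among them. Depth limits low genes most, since several groups hold 0 to 3 reads of a named gene.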

Other observations

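Of the 55 named genes, 7 had no read in Aire-deficient mTEChi that kept EED, and with EED lost as well 2 of them were called higher there. Over all genes tested, 6.69% were called higher in that comparison. The share of all genes without a read in AireKO was not counted, so these counts describe the named genes only. The 2 called higher were Asb4, an imprinted gene, and Lmx1b, a LIM homeobox factor. In AireEEDdKO, Asb4 was at 7.01, 8.59 and 6.36 CPM and Lmx1b at 2.34, 4.58 and 1.59 CPM (edgeR adjusted p = 2.30e-04 and 0.0011). The other 5 (Bhlhe23, Oas1e, Hand1, Ntrk3 and Egfem1) were not called, at 0, 0.573 and 0 CPM of Hand1 and 0.584, 3.44 and 3.5 CPM of Ntrk3 in AireEEDdKO, for example. In mTEChi Ctrl, which has Aire, Asb4 was at 20.1, 24.1, 16.1, 16.2 and 9.06 CPM and Lmx1b at 4.46, 5.73, 2.18, 4.19 and 4.18 CPM. Ages differ between these libraries, so Ctrl and AireKO are set side by side without a test.

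Lypd8, an enterocyte gene, took the opposite course, at 177, 172 and 99.5 CPM in mTEChi AireKO and 14.6, 4.58 and 4.77 CPM in mTEChi AireEEDdKO (log2 -4.29 ± 0.47, SE, adjusted p = 2.37e-06). Its 3 mTEClo AireEEDdKO libraries were at 0, 0.407 and 0.23 CPM, as low as the 4 mTEClo EEDcKO libraries at 0.334, 0.356, 0.846 and 0 CPM. Kcnk9, absent from the reads of mTEClo EEDcKO, had none in mTEClo AireEEDdKO either, and was at 0, 0 and 0.636 CPM in mTEChi AireEEDdKO and 0, 0.683 and 0.56 CPM in mTEChi AireKO. With 0 reads, these counts allow a level of up to 3 reads over the group.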
